A study of Mus musculus with 20 samples.

Results

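Small RNA of whole mouse testis at day 7 after birth was compared with that of whole testis at day 3. The comparison holds 4 of the 20 samples of the series, 2 libraries at each age, and the 2 day 1 testis libraries entered the fit so that the spread between replicates rested on all 6 testis libraries. Every group was wild-type C57Bl/6J without treatment, and the labels give 2 biological replicates per group without the number of animals in each. The remaining samples were spermatocytes of adult testis, separated by sedimentation into a leptotene/zygotene and a pachytene fraction, and an RNA library for each small RNA library. Whole testis RNA comes from all cell types of the organ, so that fewer cells of a type and less RNA per cell cannot be told apart in any value below.

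A microRNA (miRNA) is a short RNA that guides the silencing complex to messenger RNAs, and the bases near its 5′ end, the seed, pair with the target. Many miRNAs are cut from shared precursors that are transcribed from clusters of hairpins, and each hairpin can give a product from its 5′ arm (5p) and its 3′ arm (3p). In the days after birth the mouse germ cells, the gonocytes, resume division and settle as spermatogonia, the first of them enter differentiation, and the Sertoli cells that enclose them go on dividing. The deposited table counts reads by a seed of 7 bases, so a row stands for all miRNAs that share those bases. Rows were named by the mouse miRNAs of RefSeq (GRCm38.p6) whose bases 2 to 8 equal the row.

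The sequences below are those of the miRNAs that the results turn on, as given by RefSeq (GRCm38.p6), 5′ to 3′, with the seed in capitals. The X chromosome cluster comes first, ordered by shared seed, and shows which of its members a row cannot separate: the 4 miR-465 5p products share a seed, as do miR-743a-5p and miR-871-5p, although the bases after the seed differ.
miR-470-5p: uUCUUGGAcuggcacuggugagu
miR-871-3p: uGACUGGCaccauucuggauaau
miR-465a-5p: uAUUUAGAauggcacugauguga
miR-465b-5p: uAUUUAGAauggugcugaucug
miR-465c-5p: uAUUUAGAauggcgcugaucug
miR-465d-5p: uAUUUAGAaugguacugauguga
miR-465a-3p: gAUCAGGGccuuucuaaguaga
miR-465d-3p: uGAUCAGGgccuuucugaguaa
miR-743a-5p: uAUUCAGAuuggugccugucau
miR-871-5p: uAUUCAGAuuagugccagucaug
miR-743a-3p: gAAAGACAccaagcugaguaga
miR-743b-3p: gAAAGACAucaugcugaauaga
miR-881-3p: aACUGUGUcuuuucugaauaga
miR-878-5p: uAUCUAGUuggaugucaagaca
miR-463-5p: uACCUAAUuuguuguccaucau
miR-883a-3p: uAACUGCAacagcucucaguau

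The second set holds members of the imprinted region of chromosome 12 that were lower on day 7, and the miRNAs outside both regions that are described at length.
miR-127-3p: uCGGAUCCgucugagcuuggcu
miR-541-5p: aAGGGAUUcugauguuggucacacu
miR-434-5p: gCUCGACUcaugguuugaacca
miR-379-5p: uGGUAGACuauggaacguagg
miR-134-5p: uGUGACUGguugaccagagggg
miR-409-5p: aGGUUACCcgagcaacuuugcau
miR-409-3p: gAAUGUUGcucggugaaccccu
miR-202-5p: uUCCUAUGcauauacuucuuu
miR-29a-3p: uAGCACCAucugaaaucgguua
miR-29b-3p: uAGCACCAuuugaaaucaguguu
miR-29c-3p: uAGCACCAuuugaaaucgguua
miR-199a-5p: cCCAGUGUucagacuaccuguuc
miR-335-3p: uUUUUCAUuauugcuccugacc

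The day 3 libraries held 11061273 and 8511122 counts, the day 7 libraries 3392587 and 8591736, and the day 1 libraries, the shallowest of the testis, 1421742 and 2200358. The row of miR-10a-5p and miR-10b-5p was the most abundant in all 6, at 24.3% to 41.1% of counts. Of 4940 rows, 854 passed the filter on low counts and were tested with edgeR's quasi-likelihood F test, with Benjamini-Hochberg adjustment over all 854 at a threshold of 0.05. Values per library are CPM, counts divided by a library size that TMM scaling corrects for composition, and fold changes are log2, day 7 minus day 3, with the standard error (SE) of the fit.

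Between day 3 and day 7, 99 of the 854 rows changed (11.6%), 65 of them higher on day 7 (7.61%) and 34 lower (3.98%). With plain library sizes in place of TMM scaling the median of all rows moved from -0.07 to 0.18 and 84 rows changed, 75 higher and 9 lower, so the balance of rises and falls depends on the scaling (65.7% of calls higher with TMM, 89.3% with plain library sizes). Many of the changed rows came from 2 regions of the genome that moved in opposite directions. Rows of a cluster on the X chromosome, counted with rows shifted by a base and with rows shared with another locus, made up 27 of the 65 higher rows and 0 of the lower. Rows of the imprinted region of chromosome 12, counted the same way, made up 18 of the 34 lower rows and 0 of the higher. The remaining changed rows lay outside both regions: 23 higher and 11 lower rows matched other miRNAs, and 15 higher and 5 lower rows matched no miRNA of the RefSeq table.

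**Figure D1:**
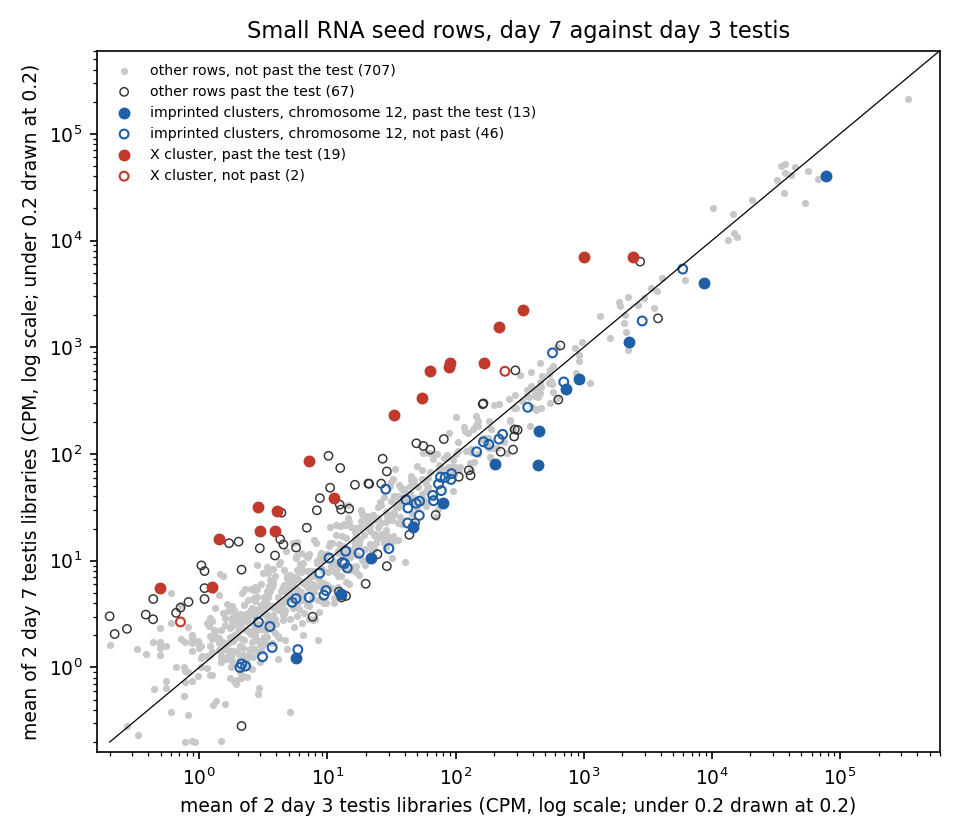
Mean CPM of the 2 day 7 libraries (vertical) against the mean of the 2 day 3 libraries (horizontal) for 854 seed rows, both on log axes, with the line of equal values. The 21 rows of the X cluster (red) lie above the line over their whole range of abundance, and most of the 59 rows of the imprinted clusters (blue) lie below it, while filled points mark the rows of each that passed the test.

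The cluster on the X chromosome holds 19 miRNA genes, each within 50 kb of the next on 1 strand, among them those of miR-463, miR-465, miR-470, miR-741, miR-743, miR-871, miR-878, miR-880, miR-881 and miR-883. These miRNAs belong to the rapidly evolving miR-506 family and are known for their abundance in male germ cells. Of its 21 rows tested, 19 were higher on day 7 and 0 were lower by edgeR (21 higher and 0 lower at an unadjusted p under 0.05, and 20 higher and 0 lower by DESeq2). All 21 had both day 7 libraries above both day 3 libraries, which 30.1% of all rows tested had. Their median log2 fold change was 2.82, with a range of 1.29 to 3.58, beside -0.07 for all rows. Some of these rows also carry another miRNA's letters shifted by a base, for example miR-432 for miR-470-5p, miR-344c-3p for miR-878-5p and miR-136-5p for miR-880-3p. Such rows cannot be assigned to the cluster by their letters alone.

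The rows of miR-470-5p and miR-871-3p were the most abundant members on day 7. miR-470-5p stood at 845 and 1153 CPM on day 3 and 7196 and 6878 CPM on day 7. Its log2 fold change was 2.82 ± 0.40 (SE, n = 2 libraries per age; edgeR, adjusted p = 0.00632). The row of miR-871-3p, at 7002 and 6990 CPM on day 7, was higher than that of miR-470-5p on day 3, at 2322 and 2505 CPM, with a log2 fold change of 1.54 ± 0.24 (edgeR, adjusted p = 0.0105). The other arm of the same hairpin, miR-871-5p, whose row it shares with miR-743a-5p, rose from 178 and 155 CPM to 714 and 722 CPM (log2 2.11 ± 0.20; edgeR, adjusted p = 0.002).

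The miR-465 genes, tandem copies within the cluster, gave 3 rows that all rose. The row of their 5p products held 250 and 417 CPM on day 3 and 2315 and 2132 CPM on day 7 (log2 2.74 ± 0.30; edgeR, adjusted p = 0.0025). The shared 3p row of miR-465a, miR-465b and miR-465c went from 79.6 and 100 CPM to 769 and 670 CPM (log2 3.00 ± 0.27; edgeR, adjusted p = 0.00155). The 3p row of miR-465d followed at 80.4 and 96.1 CPM on day 3 and 703 and 610 CPM on day 7 (log2 2.89 ± 0.21; edgeR, adjusted p = 0.00115). As the sequences show, the seed of miR-465d-3p also equals bases 1 to 7 of miR-465a-3p, so these 3p rows cannot be assigned to separate genes. In each of the 3 rows the lowest day 7 library was several times the highest day 3 library.

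miR-881-3p stood at 187 and 253 CPM on day 3 and at 1508 and 1598 CPM on day 7 (log2 2.82 ± 0.22; edgeR, adjusted p = 0.00115). miR-463-5p rose from 44.5 and 82.4 CPM to 633 and 561 CPM (log2 3.23 ± 0.34; edgeR, adjusted p = 0.0025). miR-878-5p rose from 41.5 and 68.6 CPM to 331 and 339 CPM, a log2 fold change of 2.60 ± 0.29 (edgeR, adjusted p = 0.0025). The 3p row of miR-743a and miR-743b rose from 25.5 and 40.8 CPM to 227 and 241 CPM, by 2.82 ± 0.29 (edgeR, adjusted p = 0.0025). Each of these 4 rows had its 2 day 7 libraries close together and far above day 3.

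The largest changes within the cluster belonged to rows that were scarce on day 3. The 3p row of miR-883a and miR-883b held 4.66 and 9.75 CPM on day 3 and 92.4 and 80.3 CPM on day 7, a log2 fold change of 3.58 ± 0.40 (edgeR, adjusted p = 0.0025). miR-471-5p went from 2.06 and 3.66 CPM to 29.7 and 34.3 CPM (log2 3.48 ± 0.48; edgeR, adjusted p = 0.00632). Both rows that missed the threshold also lay higher on day 7. For miR-741-3p the day 3 libraries lay far apart, at 243 ± 192 CPM (SD, n = 2), below 694 and 499 CPM on day 7 (log2 1.29 ± 0.52; edgeR, adjusted p = 0.138). miR-463-3p, the minor arm of its hairpin, stayed near the limit of detection at 0.541 and 0.887 CPM on day 3 and 2.08 and 3.27 CPM on day 7 (log2 1.93 ± 0.58; edgeR, adjusted p = 0.0741).

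**Figure D2:**
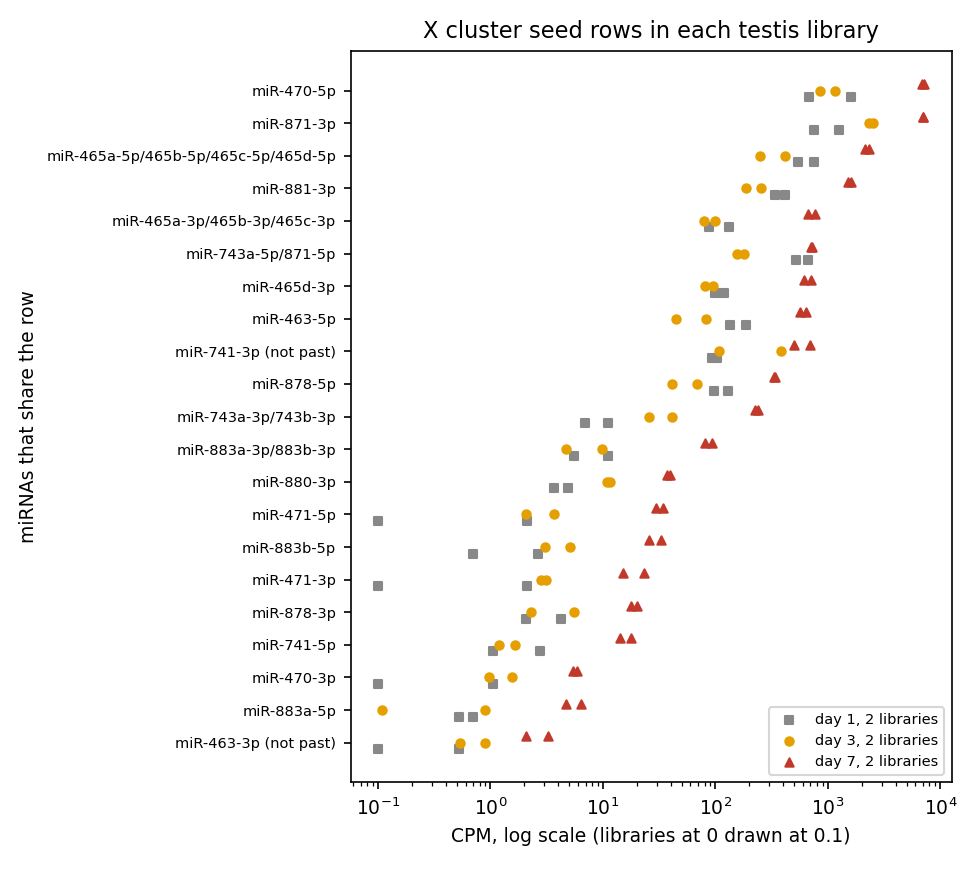
CPM on a log axis of the 21 X cluster rows tested (vertical, named by the miRNAs that share each row) in the 2 libraries each of day 1 (grey squares), day 3 (orange circles) and day 7 (red triangles) testis. In every row both red triangles lie to the right of both orange circles, from miR-463-3p at 2.08 and 3.27 CPM to miR-470-5p at 7196 and 6878 CPM on day 7.

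For 5 hairpins of the cluster both arms were tested in rows that no other gene shares. In miR-470, miR-471 and miR-878 both arms rose, and in miR-463 and miR-741 the 5p arm rose while the 3p arm missed the threshold. Rows shifted by a base from a cluster member, as reads with another 5′ end would give, moved the same way: 7 of 10 were higher and 0 lower (edgeR), with a median log2 fold change of 2.77. The row UUCAGAU, which by its letters names miR-7670-5p of chromosome 6, rose from 12.7 and 12.5 CPM to 73.9 and 74.1 CPM (log2 2.55 ± 0.27; edgeR, adjusted p = 0.0025). The same letters are bases 3 to 9 of miR-743a-5p and miR-871-5p, so the row cannot be assigned to 1 of them.

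Of 36 other rows with all their loci on the X chromosome, counted with rows shifted by a base, 2 were higher on day 7 and 2 lower. Among all rows 7.61% were higher and 3.98% lower. The 36 rows had a median log2 fold change of -0.51. The 2 higher rows were miR-201-5p, from 25.4 and 28.6 CPM to 96.8 and 83.7 CPM (log2 1.74 ± 0.25; edgeR, adjusted p = 0.00743), and miR-547-5p, from 0.758 and 1.44 CPM to 5.47 and 5.61 CPM (log2 2.32 ± 0.46; edgeR, adjusted p = 0.0221). The genes of both lie beyond the 50 kb spacing. miR-201-5p had been listed with the cluster, while of miR-547 the list held the 3p arm, which did not pass the test (log2 0.96 ± 0.34; edgeR, adjusted p = 0.113), and the 5p arm was named after its values had been seen. The 2 lower rows, miR-448-5p (log2 -1.63 ± 0.35; edgeR, adjusted p = 0.0287) and miR-221-5p (log2 -1.63 ± 0.38; edgeR, adjusted p = 0.0345), were named after their values had been seen. A second X cluster, with miR-322, miR-351, miR-450, miR-503 and miR-542, had 7 rows tested and 0 called by edgeR, with a median of -0.52 (3 lower at an unadjusted p under 0.05, and 0 by DESeq2). Another, with miR-188, miR-362, miR-500, miR-501 and miR-532, had 5 rows tested and 0 called by edgeR, with a median of -0.99 (2 lower at an unadjusted p under 0.05, and 0 by DESeq2).

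As a share of all small RNA counts, the 25 rows of the miR-465 cluster took 0.35% and 0.561% on day 3 and 2.53% and 2.45% on day 7. The day 1 libraries, at 0.342% and 0.466%, lay near those of day 3. In purified spermatocytes the share was 10.2% in both leptotene/zygotene libraries and 14.6% and 11.7% in the pachytene libraries. The rows of miR-34 and miR-449, which are known for their abundance in meiotic and later germ cells, did not follow the same course. They took 0.0456% and 0.0433% of counts on day 3 and 0.0394% and 0.0594% on day 7, against 21% and 25.5% in the leptotene/zygotene fraction and 11.6% and 24.8% in the pachytene fraction. Of 2 rows of that family tested, 0 changed between day 3 and day 7 by edgeR (0 also at an unadjusted p under 0.05 and by DESeq2).

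**Figure D3:**
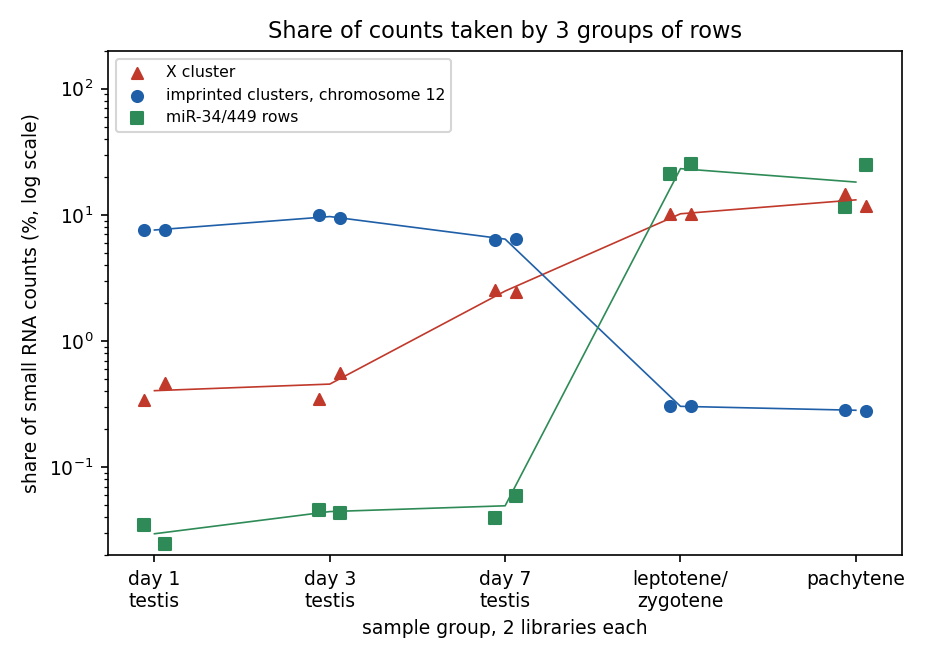
Share of small RNA counts (%, log axis) taken by the rows of the X cluster (red), the imprinted clusters of chromosome 12 (blue) and miR-34 and miR-449 (green) in the 2 libraries of each of 5 sample groups, with lines through the group means. The X cluster share stood near 0.5% or below up to day 3 and at 2.53% and 2.45% on day 7, while the share of miR-34 and miR-449 stayed below 0.06% up to day 7.

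In the RNA libraries of the same ages, all 5 germ cell markers rose with the X cluster, and their summed level went from 130 and 198 CPM on day 3 to 869 and 764 CPM on day 7. Of all 15233 genes tested there, 14.0% changed, 6.60% higher and 7.35% lower on day 7. Ddx4, a helicase found throughout the germ line, rose from 30 and 44.6 CPM to a mean of 140 ± 11.9 CPM (SD, n = 2; log2 1.92 ± 0.29; edgeR, adjusted p = 0.00891). Dazl, an RNA-binding protein of germ cells, rose by 2.30 ± 0.32 (edgeR, adjusted p = 0.00746). Zbtb16, a factor of undifferentiated spermatogonia, rose by 2.96 ± 0.48 (edgeR, adjusted p = 0.0112), Kit, the receptor of differentiating spermatogonia, by 1.93 ± 0.15 (edgeR, adjusted p = 0.00245), and Stra8, which is induced before meiosis, by 4.30 ± 0.34 from 2.2 and 4.42 CPM to 71 and 51 CPM (edgeR, adjusted p = 0.00245). The part of the germ cell share in the rise of the X cluster was not tested.

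The imprinted region of chromosome 12, between Dlk1 and Dio3, is the other region that moved. Its miRNAs are processed from long noncoding transcripts that are made from the maternal chromosome, and they are known for high levels in embryonic and placental tissue. RefSeq lists 57 miRNA genes there in 2 clusters at the spacing used, and 59 rows were tested. Of these, 13 were lower on day 7 and 0 were higher by edgeR (30 lower and 0 higher at an unadjusted p under 0.05, and 14 lower and 0 higher by DESeq2). Both day 7 libraries lay below both day 3 libraries in 50 of the 59, against 33.0% of all rows tested, and above them in 1. The median log2 fold change was -0.67, with a range of -2.49 to 0.72. With plain library sizes 6 rows were lower and 0 higher.

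miR-127-3p, which pairs perfectly with the transcript of the imprinted gene Rtl1 made from the opposite strand, was by far the most abundant member. It held 92596 and 63207 CPM on day 3 and 40061 and 39753 CPM on day 7 (log2 -0.97 ± 0.21; edgeR, adjusted p = 0.0305). Its 5p arm was scarce, at 88.3 and 97.4 CPM on day 3 and 62.5 and 68.5 CPM on day 7, with a log2 fold change of -0.50 ± 0.26 that missed the threshold (edgeR, adjusted p = 0.229). miR-541-5p went from 10384 and 6889 CPM to 3842 and 4079 CPM (log2 -1.12 ± 0.22; edgeR, adjusted p = 0.0221). For both miRNAs the 2 day 3 libraries differed more than the 2 day 7 libraries, and the ages did not overlap.

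The largest fall was that of miR-409-5p, from 242 and 643 CPM to 84.9 and 72.8 CPM (log2 -2.49 ± 0.44; edgeR, adjusted p = 0.0169). Its partner arm, miR-409-3p, held 738 and 719 CPM on day 3 and 412 and 409 CPM on day 7 (log2 -0.83 ± 0.17; edgeR, adjusted p = 0.026). A row that starts a base earlier than that of miR-409-3p fell as well, from 307 and 254 CPM to 105 and 115 CPM (log2 -1.35 ± 0.20; edgeR, adjusted p = 0.00801). The row of miR-379-5p, which miR-1193-5p shares, went from 564 and 327 CPM to 153 and 179 CPM (log2 -1.42 ± 0.33; edgeR, adjusted p = 0.034). miR-134-5p, studied mainly in neurons, went from 225 and 182 CPM to 82.8 and 79.2 CPM (log2 -1.33 ± 0.21; edgeR, adjusted p = 0.0105).

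miR-434-5p fell from 2423 and 2088 CPM to 1020 and 1222 CPM (log2 -1.01 ± 0.18; edgeR, adjusted p = 0.0169). The 3p arm of its hairpin was more abundant, at 5023 and 6825 CPM on day 3 and 5573 and 5238 CPM on day 7, and its ages overlapped (log2 -0.13 ± 0.19; edgeR, adjusted p = 0.667). Both arms of miR-431 fell, its 5p arm from 923 and 908 CPM to 503 and 508 CPM (log2 -0.86 ± 0.16; edgeR, adjusted p = 0.0169). The row of miR-540-3p, which miR-6915-5p of chromosome 10 shares, fell from 300 and 274 CPM to 149 and 142 CPM (log2 -0.98 ± 0.19; edgeR, adjusted p = 0.0221). Over the 16 hairpins of the region with both arms tested in such unshared rows, both arms were lower in 2, 1 arm was lower in 3 and neither passed the test in 11, while the arms had the same sign in 14. A row of high level ran the other way: miR-136-5p had 430 and 712 CPM on day 3 and 726 and 1046 CPM on day 7, a difference that did not pass the test (log2 0.63 ± 0.38; edgeR, adjusted p = 0.292).

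**Figure D4:**
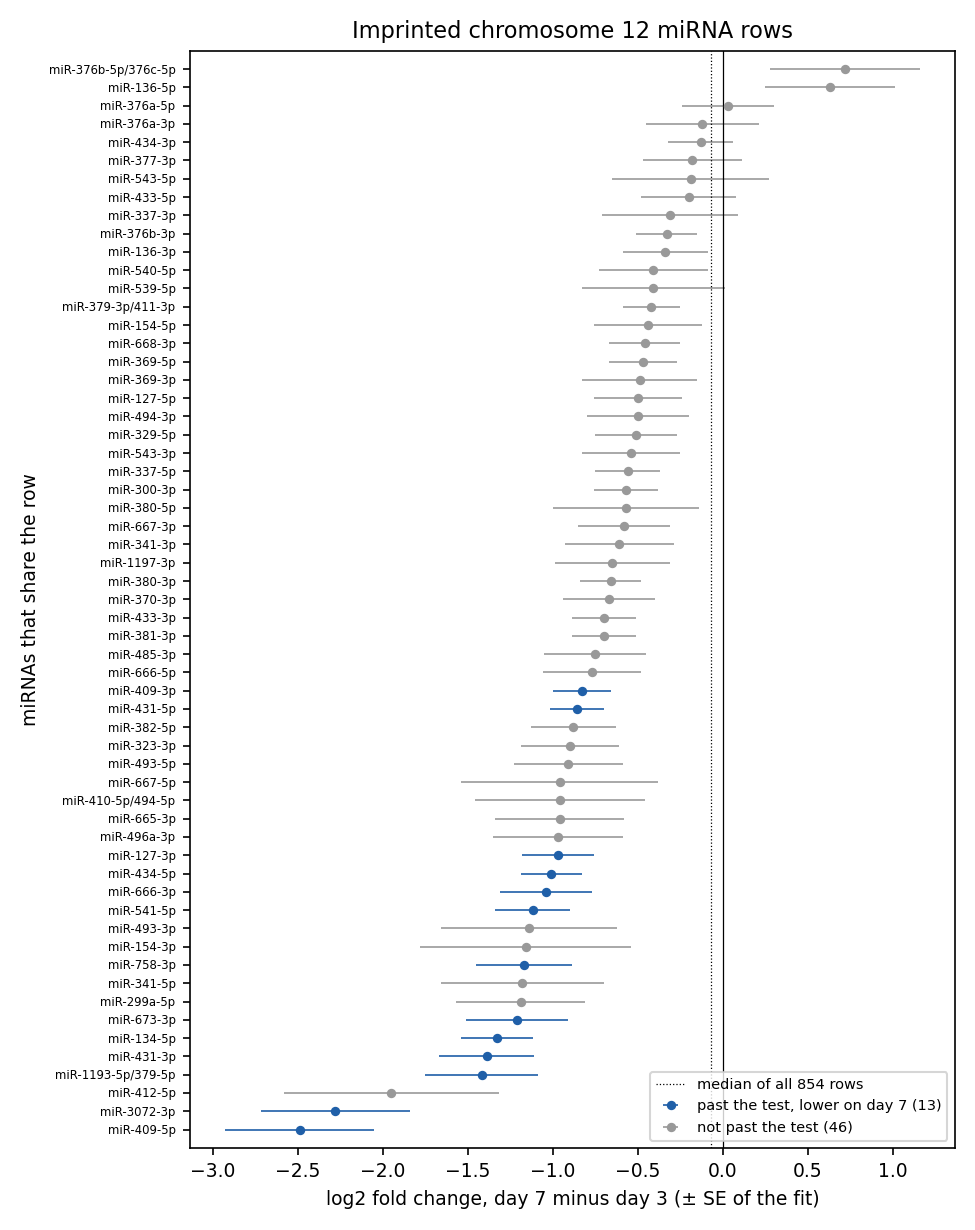
Log2 fold change, day 7 minus day 3, with the SE of the fit as bars, for the 59 rows tested of the imprinted chromosome 12 clusters, sorted by value. Blue points mark the 13 rows that passed the test, the solid line is no change and the dotted line the median of all 854 rows, -0.07. The rows run from miR-409-5p at -2.49 to the shared row of miR-376b-5p and miR-376c-5p at 0.72, with most left of the dotted line.

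The 80 rows of the 2 imprinted clusters together took 9.99% and 9.4% of counts on day 3 and 6.37% and 6.48% on day 7. The day 1 libraries lay between these ages, at 7.54% and 7.63%. In the spermatocytes, 0.303% and 0.304% of leptotene/zygotene counts and 0.281% and 0.284% of pachytene counts fell to these rows, far below every testis library.

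The RNA libraries give a separate readout of the transcripts that carry miRNAs. Of 28 genes tested, which are such hosts, the neighbouring gene Dlk1 and both Lin28 genes, 11 were lower on day 7 and 2 higher, beside 7.35% lower and 6.60% higher among all genes. Meg3, the maternal noncoding RNA at the head of the miRNA region, went from 1168 and 1149 CPM to 559 and 595 CPM (log2 -1.01 ± 0.18; edgeR, adjusted p = 0.014). Rian and Mirg, the noncoding transcripts downstream of it that contain small nucleolar RNAs and the larger miRNA cluster, fell by 1.35 ± 0.16 (edgeR, adjusted p = 0.00523) and by 1.86 ± 0.25 on the log2 scale (edgeR, adjusted p = 0.00692). Mirg was scarce, at 33.3 and 20.5 CPM on day 3 and 7.29 and 7.66 CPM on day 7. Dlk1, a Notch-like membrane protein expressed from the paternal chromosome, also fell, from 1769 and 1458 CPM to 618 and 729 CPM (log2 -1.26 ± 0.17; edgeR, adjusted p = 0.00645). Rtl1 went from 7.17 and 6.18 CPM to 2.78 and 1.83 CPM (log2 -1.53 ± 0.36; edgeR, adjusted p = 0.0337), and its reads cannot be told from those of the opposite strand, since the strand setting of the counting is not given in the sources used here.

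Of 4 imprinted miRNA hosts on other chromosomes, H19, Igf2 and Mest fell and Sfmbt2 did not pass the test. H19, the noncoding host of miR-675, went from 2301 and 1804 CPM to 805 and 755 CPM (log2 -1.40 ± 0.17; edgeR, adjusted p = 0.00545). Its neighbour Igf2, a fetal growth factor and host of miR-483, went from 806 and 878 CPM to 459 and 477 CPM (log2 -0.85 ± 0.14; edgeR, adjusted p = 0.012). Neither arm of miR-483 passed the test, with log2 fold changes of -0.29 for the 5p and -0.99 for the 3p arm (edgeR). Both arms were scarce, at means of 3.78 and 3.28 CPM on day 3. Mest, the host of miR-335, fell from 348 and 354 CPM to 106 and 96.9 CPM (log2 -1.79 ± 0.13; edgeR, adjusted p = 0.00222). The miRNA followed for 1 of its arms: miR-335-3p went from 608 and 661 CPM to 342 and 303 CPM (log2 -0.98 ± 0.18; edgeR, adjusted p = 0.0169), while miR-335-5p, with a log2 fold change of -0.59, did not pass the test. Sfmbt2, which holds a large miRNA cluster in an intron, lay higher on day 7, from 17.9 and 35.2 CPM to 58.4 and 50.6 CPM (log2 1.06 ± 0.33; edgeR, adjusted p = 0.0772), and passed with DESeq2 (adjusted p = 0.0224).

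Dnm3os is the noncoding host of miR-199a and miR-214, miRNAs of fibroblasts and other mesenchymal cells. The transcript went from a mean of 171 ± 32.8 CPM (SD, n = 2) to 64.7 and 71.9 CPM (log2 -1.33 ± 0.26; edgeR, adjusted p = 0.0192). miR-199a-5p fell with it, from 3815 and 3785 CPM to 1838 and 1896 CPM (log2 -1.03 ± 0.17; edgeR, adjusted p = 0.0146). The row of miR-199a-3p, more abundant at 16649 and 13018 CPM on day 3 and 12727 and 10997 CPM on day 7, did not pass the test (log2 -0.32 ± 0.18; edgeR, adjusted p = 0.257), nor did miR-214-3p (log2 -0.73 ± 0.26; edgeR, adjusted p = 0.109). Slit2, an axon guidance ligand, fell by 1.28 ± 0.18 (edgeR, adjusted p = 0.0079) and miR-218-5p, which it hosts together with Slit3, went from 339 and 272 CPM to 156 and 180 CPM (log2 -0.86 ± 0.20; edgeR, adjusted p = 0.0357). Slit3 did not pass the test (log2 0.45 ± 0.26; edgeR, adjusted p = 0.28), and Copz2, the host of miR-152, fell by 1.08 ± 0.21 (edgeR, adjusted p = 0.018). Neither the row of miR-152-5p (log2 -0.64) nor the row that miR-152-3p shares with miR-148 (log2 0.20) passed edgeR's test. A row a base later than that of miR-152-5p was called lower, at means of 127 CPM on day 3 and 70.4 CPM on day 7 (log2 -0.85; edgeR).

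**Figure D5:**
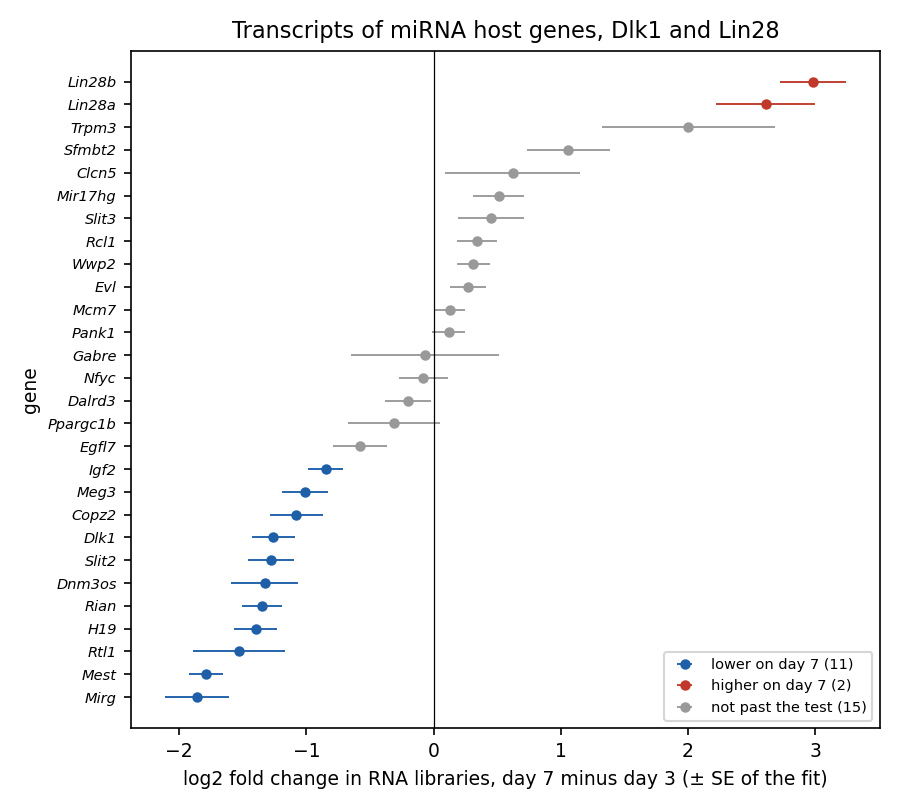
Log2 fold change in the RNA libraries, day 7 minus day 3, with the SE of the fit as bars, for 28 genes, which are miRNA hosts, Dlk1 and the Lin28 pair. The 11 genes lower on day 7 (blue) reach from Igf2 at -0.85 to Mirg at -1.86, the 2 higher (red) are Lin28a at 2.61 and Lin28b at 2.98, and 15 did not pass the test (grey).

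Markers of other cell types also moved in the RNA libraries between these ages. Both endothelial markers were lower: Pecam1, an adhesion molecule, went from 56.5 and 57.5 CPM to 31.1 and 32.8 CPM (log2 -0.84 ± 0.13; edgeR, adjusted p = 0.0104), and Cdh5, a cadherin, from 229 and 285 CPM to 151 and 159 CPM (log2 -0.73 ± 0.15; edgeR, adjusted p = 0.0206). Of 3 Leydig cell markers 1 was lower, with a sum of 703 and 645 CPM on day 3 and 369 and 536 CPM on day 7. Of 2 Sertoli cell markers tested, Amh, the anti-Müllerian hormone, was lower (log2 -1.17 ± 0.24; edgeR, adjusted p = 0.0211) and Sox9 higher (log2 0.74 ± 0.15; edgeR, adjusted p = 0.0221). None of the 2 peritubular and 2 macrophage markers passed edgeR's test. The haemoglobin gene Hbb-b1 was scarce and lower on day 7, at 1.75 and 0.993 CPM on day 3 and 0.0751 and 0 CPM on day 7 (edgeR, adjusted p = 0.0145). The part of these cell types in the falls of the imprinted miRNAs and of miR-199a-5p was not tested.

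Outside both regions, miR-202-5p rose from 2691 and 2825 CPM to 5876 and 6823 CPM (log2 1.20 ± 0.16; edgeR, adjusted p = 0.00577). This miRNA is abundant in the gonads of both sexes. A row a base earlier rose with it, from 179 and 151 CPM to 274 and 321 CPM (log2 0.85 ± 0.19; edgeR, adjusted p = 0.0319). The row of the 3p arm, which let-7j shares, stood at 134 and 154 CPM on day 3 and 194 and 182 CPM on day 7. It did not pass the test (log2 0.39 ± 0.21; edgeR, adjusted p = 0.248). The miR-29 family, known for targeting collagen and DNA methyltransferase transcripts, rose from 51.3 and 47.7 CPM to 129 and 123 CPM (log2 1.35 ± 0.19; edgeR, adjusted p = 0.00632).

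A smaller rise was that of miR-423-3p, from 666 and 650 CPM to 1063 and 1017 CPM (log2 0.66 ± 0.17; edgeR, adjusted p = 0.0482). The row that miR-423-5p shares with miR-6921-5p rose by 1.05 ± 0.27 (edgeR, adjusted p = 0.0473), and both were chosen for mention after their values had been seen. The pluripotency list holds the miR-290-295 and miR-302-367 clusters of embryonic stem cells. Of its 6 rows tested 1 was called by edgeR, beside 11.6% of all rows (1 higher and 2 lower at an unadjusted p under 0.05, and 1 higher by DESeq2). Both day 7 libraries lay below both day 3 libraries in 4 of the 6 and above them in 2, with a median log2 fold change of -0.41. The called row was miR-290a-3p, from 26.1 and 26.5 CPM to 54.2 and 51.4 CPM (log2 1.00 ± 0.20; edgeR, adjusted p = 0.0222). The main seed of that list, shared by miR-291a-3p, miR-294-3p, miR-295-3p and miR-302, stood at 117 and 83 CPM on day 3 and 74.5 and 71.9 CPM on day 7 and did not pass the test (log2 -0.45 ± 0.34; edgeR, adjusted p = 0.411). The same letters lie a base later than the seed in miR-17-5p and miR-20a-5p, so the row cannot be assigned to that list alone.

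The let-7 row, the seed of a family that accumulates as cells differentiate, held 35859 and 38331 CPM on day 3 and 55864 and 49185 CPM on day 7. The ages did not overlap, but the difference missed the threshold (log2 0.50 ± 0.15; edgeR, adjusted p = 0.0724). Both Lin28 genes, whose proteins block the maturation of let-7, rose in the RNA libraries. Lin28a went from 10.4 and 21.5 CPM to 100 and 89.4 CPM (log2 2.61 ± 0.39; edgeR, adjusted p = 0.00873) and Lin28b from 3.27 and 5.41 CPM to 34.6 and 31.3 CPM (log2 2.98 ± 0.26; edgeR, adjusted p = 0.00294). The let-7 row thus lay higher on day 7 while both repressor transcripts did as well.

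Of the 10 most abundant rows by mean CPM over the day 3 and day 7 libraries, 1 passed the test, miR-127-3p. The miR-10 row, of miRNAs that lie within the Hox gene clusters, held 423362 and 256519 CPM on day 3 and 214464 and 213788 CPM on day 7 and did not pass the test (log2 -0.67 ± 0.26; edgeR, adjusted p = 0.135). A row that starts a base earlier did, falling from 252 and 199 CPM to 97.1 and 112 CPM (log2 -1.11 ± 0.22; edgeR, adjusted p = 0.0221). The row a base later was far more abundant, at means of 67670 CPM on day 3 and 37515 CPM on day 7, and did not pass (log2 -0.85; edgeR, adjusted p = 0.127). The row of miR-99 and miR-100 fell just short, at 35508 and 71144 CPM against 24663 and 20672 CPM (log2 -1.23 ± 0.32; edgeR, adjusted p = 0.0515), and a row a base later passed (log2 -1.06 ± 0.19; edgeR, adjusted p = 0.0169). For miR-22-3p the ages were 36472 and 32531 CPM against 48895 and 50642 CPM (log2 0.53 ± 0.14; edgeR, adjusted p = 0.052). The miR-181, miR-26 and miR-30 rows and GAGAUGA, which matched no entry, had log2 fold changes of -0.32, -0.02, 0.23 and 0.12 and did not pass.

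Across all 170 shifted rows whose unshifted row was also tested, 18 were called. In 14 of them the unshifted row was called the same way, in 4 it was not called, and in 0 was it called the opposite way (edgeR). Over the 54 hairpins with both arms tested in rows that no other gene shares, both arms rose in 3, both fell in 2, 1 arm was called in 8, and in 0 were the arms called in opposite directions. Arms of a hairpin and rows of shifted reads come from the same transcripts, so these rows are not separate observations.

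The lists of miRNAs known from particular cells are given by their counts, beside the 11.6% of all rows that changed. The spermatogonial list, with miR-146, miR-221, miR-21, miR-182 and miR-135 among others, had 0 of 8 rows called by edgeR (1 higher and 1 lower at an unadjusted p under 0.05, and 1 higher by DESeq2). Its row of miR-146a-5p and miR-146b-5p varied most, at 852 and 244 CPM on day 3 and 289 and 308 CPM on day 7. The 5 rows of miR-17-92 and its paralogs, miRNAs of dividing cells, all had both day 7 libraries above day 3, which 30.1% of all rows tested had. Their log2 fold changes were 0.15 to 0.51, and 0 were called by edgeR (1 higher at an unadjusted p under 0.05, and 1 by DESeq2). The row that miR-15 and miR-16 share, which restrains the cell cycle, went from 7324 and 13256 CPM to 19133 and 21300 CPM and missed the threshold (log2 0.97 ± 0.27; edgeR, adjusted p = 0.056).

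Among lists for other cells of the organ, the smooth muscle and fibroblast list had 1 lower of 8 rows tested, miR-199a-5p. At an unadjusted p under 0.05 this list had 1 higher and 5 lower, and by DESeq2 1 higher and 2 lower. Its members miR-143-3p and miR-145a-5p had no entry in the RefSeq table. The Sertoli cell list had 1 higher of 7, miR-202-5p (3 higher and 2 lower at an unadjusted p under 0.05, and 2 higher by DESeq2). Its miR-204-5p row, from 85.4 and 115 CPM to 178 and 269 CPM, missed the threshold (log2 1.16 ± 0.31; edgeR, adjusted p = 0.0538). The epithelial list had 1 lower of 6, miR-205-5p, an epithelial miRNA at 21.1 and 37.1 CPM on day 3 and 6.77 and 11 CPM on day 7 (log2 -1.67 ± 0.36; edgeR, adjusted p = 0.029). That list had 1 higher and 1 lower at an unadjusted p under 0.05, and the same by DESeq2. The steroidogenic list had 0 of 4 called by edgeR (1 lower at an unadjusted p under 0.05, and 0 by DESeq2). The ubiquitous list had 0 of 10 called by edgeR (1 higher at an unadjusted p under 0.05, and 1 by DESeq2).

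The list named for neural miRNAs had 2 higher and 1 lower of 6 rows. miR-9-5p, a miRNA of neural progenitors, rose from 20.8 and 21.6 CPM to 57.8 and 47.4 CPM (log2 1.31 ± 0.23; edgeR, adjusted p = 0.0169), and the lower row was miR-218-5p, given above. The row of miR-128-3p rose from 179 and 147 CPM to 312 and 274 CPM (log2 0.84 ± 0.21; edgeR, adjusted p = 0.0445). Its letters are also bases 3 to 9 of miR-27a-3p and miR-27b-3p, whose own row was far more abundant, at 22789 and 18713 CPM on day 3 and 22857 and 25154 CPM on day 7, so the rise of that row cannot be assigned to miR-128. A row a base later, ACAGUGA, was also called higher, and its letters are in miR-128-3p but not in miR-27a-3p or miR-27b-3p. It was scarce, at means of 1.1 CPM on day 3 and 4.38 CPM on day 7 (log2 1.97; edgeR).

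Blood and vessel miRNAs did not pass the test. The erythroid miRNA miR-451a stood at 328 and 180 CPM on day 3 and 144 and 62 CPM on day 7 (log2 -1.31 ± 0.47; edgeR, adjusted p = 0.116). Of 3 erythroid rows 0 were called by edgeR (1 lower at an unadjusted p under 0.05, and 1 by DESeq2). The leukocyte list had 0 of 4, the endothelial list 0 of 1 and the striated muscle list 0 of 2 called by edgeR (0 in each at an unadjusted p under 0.05 and by DESeq2). In the striated muscle list, miR-1a-3p and miR-133a-3p had no entry in the RefSeq table. The row of miR-133b-3p, which that list did not hold, was called higher (log2 1.08; edgeR). A row a base later was called higher too, at means of 29.1 CPM on day 3 and 68.7 CPM on day 7 (log2 1.25; edgeR). Both were chosen for mention after their values had been seen. The endothelial miR-126a-3p stood at 416 ± 70.1 CPM (SD, n = 2) on day 3 and 367 and 389 CPM on day 7.

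The step from day 1 to day 3 shows whether these changes belonged to the later step. Both steps share the day 3 libraries, which enter them with opposite signs. From day 1 to day 3, 131 rows changed (15.3%), 74 higher (8.67%) and 57 lower (6.67%). The 21 X cluster rows then showed 3 higher and 4 lower, with a median of -0.20 in place of 2.82. The 59 imprinted rows showed 9 higher and 4 lower. The difference between the steps was tested in the same fit and passed in 22 of the 854 rows (2.58%).

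Of these 22 rows, 7 were X cluster members, and all but the shared 3p row of miR-465a, miR-465b and miR-465c had both day 3 libraries below both day 1 libraries. The shared row of miR-743a-5p and miR-871-5p showed the deepest dip, from 525 and 671 CPM on day 1 to 178 and 155 CPM on day 3 and back to 714 and 722 CPM on day 7 (difference of the log2 steps 3.96 ± 0.37; edgeR, adjusted p = 0.00716). miR-463-5p followed the same course, from 135 and 187 CPM to 44.5 and 82.4 CPM and then to 633 and 561 CPM (4.58 ± 0.61; edgeR, adjusted p = 0.0114). Members did not all share it: miR-871-3p rose at both steps, from 752 and 1243 CPM on day 1 to 2322 and 2505 CPM on day 3 and 7002 and 6990 CPM on day 7.

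The opposite course, highest on day 3, was seen in miR-199a-5p, which stood at 1181 and 940 CPM on day 1, 3815 and 3785 CPM on day 3 and 1838 and 1896 CPM on day 7 (difference of the log2 steps -2.87 ± 0.29; edgeR, adjusted p = 0.00716). Its host Dnm3os did not follow, at means of 309 ± 113, 171 ± 32.8 and 68.3 ± 5.07 CPM (SD, n = 2) on days 1, 3 and 7. In the imprinted region miR-434-5p, at 857 and 821 CPM on day 1, 2423 and 2088 CPM on day 3 and 1020 and 1222 CPM on day 7, also passed (-2.43 ± 0.30; edgeR, adjusted p = 0.0106), as did miR-409-5p (-4.10 ± 0.70; edgeR, adjusted p = 0.0285) and the row of miR-379-5p (-2.79 ± 0.54; edgeR, adjusted p = 0.044). Other imprinted rows fell at both steps, such as miR-431-5p, from 1674 and 1693 CPM on day 1 to 923 and 908 CPM on day 3 and 503 and 508 CPM on day 7, and miR-409-3p, from 1554 and 1897 CPM to 738 and 719 CPM and then to 412 and 409 CPM. The arms of miR-409 thus moved in opposite directions from day 1 to day 3, with log2 fold changes of 1.61 (edgeR, adjusted p = 0.0496) and -1.24 (edgeR, adjusted p = 0.00985), and in the same direction from day 3 to day 7.

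The scaling and single libraries decided part of these calls. With plain library sizes the rows of miR-434-5p, miR-540-3p, miR-199a-5p, miR-335-3p, miR-205-5p and miR-218-5p, and the called shifted rows of miR-10 and miR-99, no longer passed the test, and none of them changed sign. Without day 7 replicate 1, 24 rows changed, all higher, and without day 7 replicate 2, 15 rows, all higher. The X cluster then kept 16 and 10 higher rows, and the imprinted clusters had 0 lower rows in either case. In these fits the lone day 7 library is assumed to vary as the replicates of the other ages do. Without day 3 replicate 2, 196 rows changed, 99 higher and 97 lower. With the spermatocyte libraries added to the fit, the filter and the scaling were redone as well as the spread, and 745 rows were tested. Of these, 31 changed, 29 higher and 2 lower, with 17 X cluster rows higher and 1 imprinted row lower.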

How the data were processed

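Small RNA was measured in testis of wild-type mice at 3 ages, 2 libraries each. The authors deposited raw counts per seed of 7 bases, with a table of gene counts for matching RNA libraries. Libraries were made with TruSeq kits after TRIzol extraction, per the labels' protocols. The submitters' processing notes name mm9, edgeR 3.6.8, HTSeq 0.6.1, Bowtie 0.12.7 and BWA 0.7.8, without the role of each. A seed count joins all miRNAs that share it, and reads with another 5′ end fall into other rows. Of testis reads in the RNA table, 44.7% to 51.8% were in HTSeq's 5 summary rows, which were left out of library sizes and tests.

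Rows were kept by filterByExpr (minimum count 10), scaled by TMM and fitted with edgeR 4.0.16 (R 4.3.3) over the 6 testis libraries. The SE was taken as the size of the log2 fold change divided by the root of F. The script was tested on simulated data. Named were the 12 largest rises and 12 largest falls past the test of at least 100 CPM without overlap between ages, the 10 most abundant rows, and up to 4 rows per list. The 19 lists held 234 miRNAs, 196 of them in the RefSeq table; Sfmbt2 cluster miRNAs had no entry. Because the files use mm9, no coordinates are given. Members, lists and tests were chosen with earlier results of these data known. Alternatives covered scaling, filter, test, libraries fitted, shifted rows and left-out libraries; the crossed numbering was added after seeing the data. Depth was 1421742 to 11061273 counts per testis library, and replicates differed by more than sampling noise. Other miRNAs with no entry in the RefSeq table are not analysed here.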

Additional observations from a re-analysis of the deposited data

How the results depend on the processing

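The count of changed rows, 99, fell to 31 when all 10 libraries were fitted, to 49 with the replicate block and to 38 in a test against a 1.5-fold minimum, and ranged from 15 to 196 when a library was left out. The difference between the steps, 22 rows, gave 0 with all 10 libraries, 101 with DESeq2, 58 with upper-quartile factors and 120 with no count filter, and 0 to 116 when a library was left out. The 13 changed genes among the miRNA hosts, Dlk1 and Lin28 became 2 with all 10 libraries and ranged from 3 to 19 when a library was left out. The cause of these shifts was not tested, and a fit with a library left out also holds fewer samples. The replicate numbers did not pair the samples: the deviations from the group means of same-numbered libraries correlated at -0.03, -0.10 and -0.10 between ages. With the replicate block 18 X cluster rows were higher in place of 19 and 4 imprinted rows lower in place of 13, miR-127-3p (seed CGGAUCC) and miR-541-5p (seed AGGGAUU) missed the threshold (log2 -0.96, adjusted p = 0.0736, and -1.11, adjusted p = 0.0608; edgeR), 15 rows differed between the steps, and 13 host, Dlk1 and Lin28 genes changed. With the day 7 numbers crossed in the block, chosen after seeing the data, 71 rows changed and 16 differed between the steps. Of 44 called miRNA rows and host genes described, 12 stayed past the threshold in every setting, 17 lost it only without a day 7 library or with all 10 libraries, and 0 changed sign in any. The day 1 libraries and day 7 replicate 1 were the shallowest, which limits the rows of a few CPM.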
